A study of Homo sapiens with 6 samples.

Results

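The genes of O-GlcNAc cycling and of the hexosamine pathway that feeds it were examined for splicing in human cells depleted of the splicing factor SFSWAP. The 10 genes were OGT, OGA, GFPT1, GNPNAT1, PGM3, UAP1, UAP1L1, AMDHD2, RENBP and NAGK, of 13390 genes listed in the tables of retained introns and skipped exons. Their rows were kept where an event had a mean of at least 20 junction reads per library, which left 24 of their 37 listed introns and 149 of their 182 listed exon events, against 12867 of 21158 introns and 101163 of 153168 exon events over all genes.

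The study asked how SFSWAP acts on intron detention in OGT and on splicing at large. PolyA RNA was sequenced from HEK293A-TOA, an embryonic kidney line, in 3 siSFSWAP libraries and 3 siNT libraries. The siSFSWAP cells received 40 nM of a mixture of siRNAs against SFSWAP. The siNT cells received 40 nM of a non-target siRNA, and both groups were collected on day 5. Both groups had the same line and medium, no drug is named in the labels, and the labels call the samples biological replicates. A mixture of siRNAs in a single line gives partial depletion and cannot separate the effect of either siRNA from that of the other. In its protein blot for the untreated samples the study calls an siRNA against SFSWAP not effective. The 3 libraries of a group are called a, b and c by their place in the tables, and a letter does not tie an siSFSWAP library to an siNT library.

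O-GlcNAc is a single sugar that OGT attaches to serines and threonines of proteins inside the cell and that OGA removes. The donor sugar, UDP-GlcNAc, is made from fructose 6-phosphate by the hexosamine pathway, in which GFPT1 carries out the entry step, GNPNAT1 acetylates, PGM3 moves the phosphate and UAP1 adds the nucleotide. OGT is known for an intron that stays in a large share of its nuclear transcripts and whose splicing responds to cellular O-GlcNAc. AMDHD2, RENBP and NAGK act on free or phosphorylated GlcNAc beside this route.

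The introns and exons on which the results turned are given here from the GRCh38 reference, all on the coding strand of the gene. In the introns and in the OGT decoy exon form, which lies within OGT intron 4, the capitals mark the first stop codon in the frame of the upstream coding exons. In UAP1L1 exon 2 the capitals mark the AG that ends before a shorter form of 179 nt and the GT that follows a shorter form of 171 nt. In AMDHD2 exon 5 they mark the AG before a form of 121 nt, and AMDHD2 exon 4 has no capitals.
RENBP intron 2: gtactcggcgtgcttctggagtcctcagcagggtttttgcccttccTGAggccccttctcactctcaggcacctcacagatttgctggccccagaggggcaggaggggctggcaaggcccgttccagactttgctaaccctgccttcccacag
UAP1L1 intron 3: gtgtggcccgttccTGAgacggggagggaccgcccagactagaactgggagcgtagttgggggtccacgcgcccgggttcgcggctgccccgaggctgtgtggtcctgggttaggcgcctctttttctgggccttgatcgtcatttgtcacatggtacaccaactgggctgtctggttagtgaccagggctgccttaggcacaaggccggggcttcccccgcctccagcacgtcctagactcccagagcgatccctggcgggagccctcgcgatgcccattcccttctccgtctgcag
OGT decoy form of 153 nt: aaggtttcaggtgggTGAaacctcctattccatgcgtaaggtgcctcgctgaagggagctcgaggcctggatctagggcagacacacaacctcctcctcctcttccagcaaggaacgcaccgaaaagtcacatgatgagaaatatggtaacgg
UAP1L1 exon 2: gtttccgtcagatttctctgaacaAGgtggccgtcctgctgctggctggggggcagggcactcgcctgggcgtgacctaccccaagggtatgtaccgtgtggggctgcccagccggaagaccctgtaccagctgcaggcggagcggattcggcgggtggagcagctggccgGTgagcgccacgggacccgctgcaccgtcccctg
AMDHD2 exon 4: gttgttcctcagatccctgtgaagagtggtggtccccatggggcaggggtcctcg
AMDHD2 exon 5: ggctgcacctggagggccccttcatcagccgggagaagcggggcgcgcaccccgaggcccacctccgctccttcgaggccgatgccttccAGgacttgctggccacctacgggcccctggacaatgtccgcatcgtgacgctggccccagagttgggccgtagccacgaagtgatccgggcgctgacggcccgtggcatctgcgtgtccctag
RENBP intron 2 is at chrX:153944156-153944308 on the minus strand, and its stop codon begins at nt 47. UAP1L1 intron 3 is at chr9:137078678-137078975 on the plus strand, and its stop codon begins at nt 15. The OGT decoy form is at chrX:71546344-71546496, with a stop codon at nt 16, inside intron 4 at chrX:71544636-71547906. UAP1L1 exon 2 is at chr9:137078050-137078254, AMDHD2 exon 4 at chr16:2527561-2527615 and AMDHD2 exon 5 at chr16:2527773-2527985, all on the plus strand. All lie between coding exons or are coding themselves in GENCODE release 44.

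The libraries held 2767079 to 7465949 junction reads summed over all introns and 19515010 to 55274283 over all exon events, and siNT library a was the deepest. SFSWAP, the gene that was targeted, had 34.7, 34.6 and 21.3 spliced reads per 1000000 reads (CPM) in the siSFSWAP libraries, against 79.7, 86.5 and 80.2 CPM in the siNT libraries. It fell by 1.46 on the log2 scale (SE 0.16, limma adjusted p = 0.000351), and no siSFSWAP library overlapped an siNT library. Since 0 of 5 genes chosen as marks of the HEK293 line, and 1 of 9 marks of other cell types, had exon rows to read, the cell identity was not checked here. The exception, the fibroblast gene COL1A1, was at 0.409 to 0.514 CPM in siSFSWAP and 0.371 to 0.438 in siNT.

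Of the 24 introns, 17 in 5 genes had enough reads of both the retained and the spliced form to be tested. An event was called when its adjusted p was at most 0.05 (quasi-binomial F test on junction reads with a dispersion moderated in limma, Benjamini-Hochberg over all 10155 tested introns) and its mean inclusion changed by at least 20 percentage points. Inclusion is the share of the retained or included form after division of its reads by the effective length. By this rule 2 of the 17 introns, in RENBP and UAP1L1, were lower in siSFSWAP and 0 were higher, against 1.61% of all tested introns lower and 0.148% higher. At an unadjusted p of at most 0.05 there were 5 of the 17, all lower, beside 1605 of all 10155, of which 1259 were lower. The median change of the 17 introns was −1.67 points, against −0.52 points over all tested introns. The 7 untested introns had mean inclusion between 98.1% and 99.6%, and GFPT1, GNPNAT1 and UAP1 had no intron that met the read rule. None of these 7 was an intron of the reference transcript of its gene (MANE Select). The 2 in AMDHD2, for example, start at the same base as intron 8 and end within it. Such inclusion shows that an alternative junction was rarely used, and is not the retention of a reference intron.

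**Figure D1:**
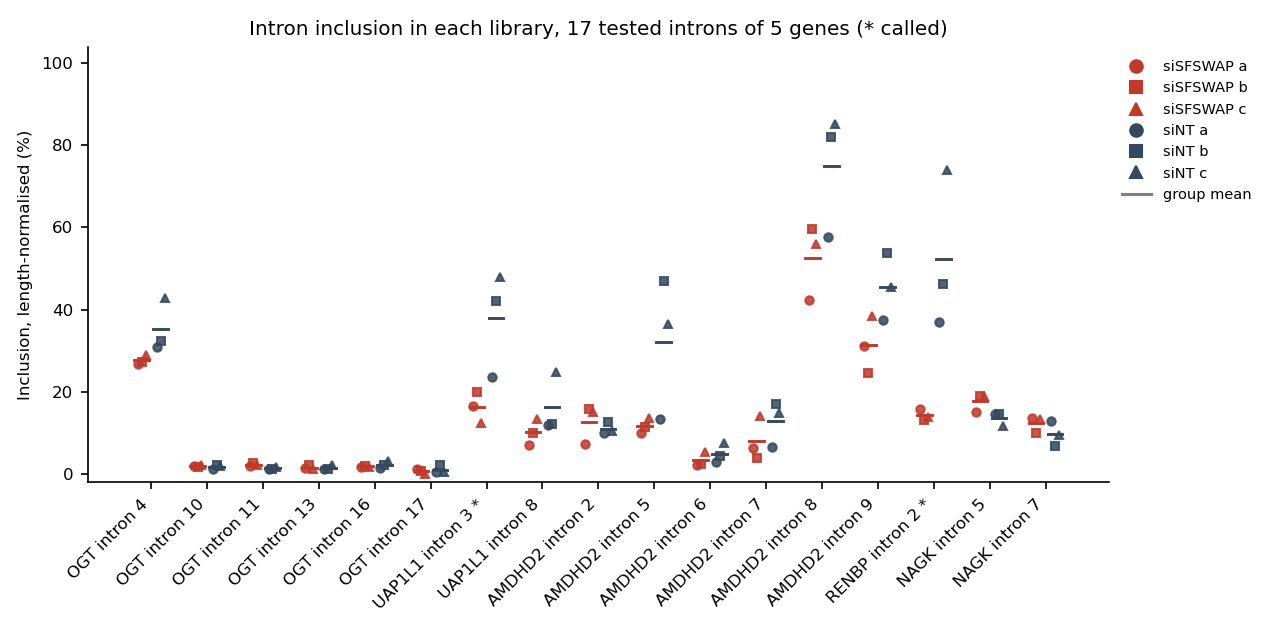
Length-normalised inclusion in percent (vertical axis) of the 17 tested introns, with siSFSWAP libraries in red on the left and siNT libraries in dark blue on the right of each intron, 1 symbol per library and a line at the group mean. RENBP intron 2 and UAP1L1 intron 3, marked with a star, were called, and the 5 OGT introns other than intron 4 stayed near 0.

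OGT, the transferase itself, had 6 tested introns. Its intron 4, of 3271 nt, was included at 26.6%, 27.2% and 28.9% in the siSFSWAP libraries, against 30.8%, 32.4% and 42.8% in the siNT libraries. Every siSFSWAP library lay below every siNT library, and siNT library c stood above the other two of its group. The change of −7.73 points did not pass the test (log2 odds −0.41, 95% interval −0.86 to 0.03, adjusted p = 0.362).

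The reads of each form of OGT intron 4 were set out by library, with no test of either form. Reads into the intron came to 29.2, 23.5 and 26.5 reads per 1000000 junction reads of the intron table (RPM) in siSFSWAP, against 33.2, 30.0 and 40.7 in siNT. Reads across the spliced junction of exons 4 and 5 came to 40.2, 31.4 and 32.5 RPM in siSFSWAP, against 37.4, 31.3 and 27.2 in siNT. The retained reads of the groups did not overlap, while the spliced reads did.

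Inside OGT intron 4, 7 exon forms met the read rule and 5 were tested, and none was called. The form with the highest mean inclusion, of 146 nt, was included at 0.28%, 0% and 1.45% in siSFSWAP, against 1.59%, 0% and 1.91% in siNT. The form of 153 nt was at 0%, 0% and 0.488% in siSFSWAP, against 0.888%, 0% and 2.53% in siNT. The form of 150 nt had no read in any siSFSWAP library, against 0.712%, 0% and 1.28% in siNT (adjusted p = 0.21).

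The forms of 279, 146 and 143 nt end at the same base, as do those of 153 and 150 nt, so these forms share inclusion reads. The forms of 279 nt and 143 nt had the same inclusion in siSFSWAP, 0.279%, 0% and 0.971%. In siNT the form of 279 nt was at 1.06%, 0% and 0.645%, and the form of 143 nt at 1.41%, 0% and 0.645%. The 7 forms had 0 to 4 inclusion reads over the 3 siSFSWAP libraries and 0 to 12 over the 3 siNT libraries, beside 368 and 456 skipping reads that all forms share with intron 4. The siNT library b had no read of the 5 tested forms.

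The other OGT introns, 10, 11, 13, 16 and 17, were nearly fully spliced, at 0% to 2.48% in siSFSWAP libraries and 0.40% to 3.05% in siNT libraries. Their changes ran from −0.45 to 0.87 points. Of the OGT exons, exon 7 was included at 96.2%, 95.5% and 94.1% in siSFSWAP, against 92.3%, 92.2% and 93.8% in siNT. The groups did not overlap, but the change of 2.53 points did not pass the test (adjusted p = 0.322). The OGT exon event with the largest change was exon 4 with a 3′ extension into intron 4, 471 nt in all. This event starts at the same base as exon 4, so its inclusion reads include reads into exon 4 of any transcript. Its inclusion is therefore not the use of the extension. It was at 86.6%, 88.5% and 70.4% in siSFSWAP, against 94.3%, 85.9% and 79.3% in siNT (adjusted p = 0.406), and the groups overlapped.

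OGA, the hydrolase that removes O-GlcNAc, had 31 exon events that met the read rule, of which 14 were tested. None was called, and changes ran from −3.42 to 4.68 points. The largest was in an exon of 133 nt inside intron 3 that no annotated transcript holds. It was included at 5.33%, 4.08% and 10.7% in siSFSWAP, against 2.72%, 3.33% and 0% in siNT. Every siSFSWAP library was above every siNT library, on 23 inclusion reads in siSFSWAP and 14 in siNT, and the change did not pass the test (adjusted p = 0.144). The 1 OGA intron that met the read rule was included at 98.1% on average and could not be tested. No annotated transcript holds it, and it is part of a longer annotated intron. Reads spliced across that longer intron are not its spliced form, so its inclusion is not the retention of the longer intron.

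The enzymes of the main route to UDP-GlcNAc had no called event. GFPT1, which makes glucosamine 6-phosphate, had 7 tested exon events with changes of −2.38 to 0.64 points. The largest of these was a form of exon 3 of 113 nt, at 97.1%, 100% and 94.2% in siSFSWAP, against 100%, 100% and 98.5% in siNT. GNPNAT1 had 5 tested events, and its largest change was in an exon of 39 nt in the 5′ untranslated region. This exon was at 3.25%, 10.2% and 4.87% in siSFSWAP, against 3.19%, 13.2% and 13.9% in siNT, with overlapping groups.

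PGM3, the phosphoglucomutase family member of the route, had 4 tested events with changes of −1.58 to 1.13 points. Its exon 8 was at 95.2%, 80.6% and 96.1% in siSFSWAP, against 95%, 88.3% and 93.4% in siNT. UAP1, the pyrophosphorylase that completes UDP-GlcNAc, had 8 tested events. Its exon 9, of 51 nt, was included in part in all libraries, at 75.2%, 70.2% and 50.7% in siSFSWAP, against 70.1%, 58.6% and 49.3% in siNT. The spread within either group was larger than the change of 6.03 points (adjusted p = 0.849).

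UAP1L1, a paralogue of UAP1, held most of the called events of the 10 genes. Of its 2 tested introns, intron 3 fell, and of its 6 tested exon events, 4 forms of exon 2 rose. Over all 79 tested exon events of 9 genes, 7 were higher in siSFSWAP and 0 were lower, against 1.44% of all 48100 tested exon events higher and 0.655% lower. At an unadjusted p of at most 0.05, 12 of the 79 were higher and 3 lower, beside 5859 higher and 3686 lower of all 48100. The median change of the 79 was 0.36 points, against 0.30 points over all tested exon events.

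UAP1L1 exon 2, of 205 nt, was included at 75.7%, 79.2% and 56.7% in the siSFSWAP libraries, against 52.7%, 24.4% and 19.4% in the siNT libraries. The groups did not overlap, and siNT library a stood closest to the siSFSWAP libraries. Mean inclusion was 70.5% ± 12.1 in siSFSWAP and 32.2% ± 18.0 in siNT (SD, n = 3 each), a change of 38.3 points (log2 odds 2.44, SE 0.54, quasi-binomial test with limma moderation, adjusted p = 0.00424). Its length is not a multiple of 3.

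The form of 171 nt, which ends before the GT in capitals, was at 52.6%, 54.5% and 31.6% in siSFSWAP, against 13.3%, 12.8% and 1.96% in siNT (adjusted p = 0.00333). A form of 237 nt that ends further into intron 2 was at 52.6%, 63.0% and 36.6% in siSFSWAP, against 23.5%, 17.1% and 1.96% in siNT (adjusted p = 0.00818). The form of 179 nt, which starts after the AG in capitals, was at 67.3%, 72.2% and 48% in siSFSWAP, against 50%, 15% and 18% in siNT (adjusted p = 0.0154). In this last form alone of the 4 the groups overlapped, through siNT library a.

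The 4 forms are not independent. The 205, 171 and 237 nt forms start at the same base, and the 205 and 179 nt forms end at the same base. They therefore share inclusion reads, and the inclusion of a form is not its use alone. All 4 are also measured against the same reads that join exon 1 to exon 3. These skipping reads numbered 9, 5 and 13 in siSFSWAP, against 13, 34 and 25 in siNT. The inclusion reads of the 205 nt form numbered 56, 38 and 34 in siSFSWAP, against 29, 22 and 12 in siNT. Scaled to the exon table, inclusion reads were at 1.75, 1.95 and 1.53 RPM in siSFSWAP, against 0.52, 0.94 and 0.58 in siNT, with no overlap, while skipping reads were at 0.28, 0.26 and 0.59 in siSFSWAP, against 0.24, 1.45 and 1.20 in siNT, and overlapped through siNT library a. Inclusion reads of the 171 nt form were fewer, at 0.63, 0.61 and 0.54 RPM in siSFSWAP, against 0.07, 0.43 and 0.05 in siNT. With limma on log2 odds in place of the quasi-binomial test the 171 nt form was called (adjusted p = 0.0492), and the forms of 205, 237 and 179 nt were not (adjusted p = 0.0786, 0.0741 and 0.103). Without siNT library a all 4 forms were called. Without any other single library the 171 nt form was called only where siSFSWAP library b or c was left out (adjusted p = 0.0456 and 0.0448), and the other 3 forms were not (adjusted p between 0.0667 and 0.23).

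UAP1L1 intron 3, next downstream of exon 3, was included at 16.4%, 20% and 12.3% in siSFSWAP, against 23.4%, 42% and 48% in siNT. The groups did not overlap, and siNT library a was again the nearest to siSFSWAP. The change was −21.6 points (log2 odds −1.66, SE 0.45, adjusted p = 0.0466). Reads into the intron came to 4.04, 5.42 and 4.46 RPM in siSFSWAP, against 4.02, 18.1 and 17 in siNT, so that siNT library a carried no more of them than the siSFSWAP libraries did. Without siNT library a the change was −28.8 points (adjusted p = 9.49e-06), and without any other single library the call was lost (adjusted p between 0.123 and 0.297), as it was with limma on log2 odds (adjusted p = 0.181).

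UAP1L1 exon 5, of 194 nt, missed the call, at 100%, 100% and 96.4% in siSFSWAP, against 90.3%, 92.2% and 61.5% in siNT (adjusted p = 0.0529). The change of 17.5 points was also under the threshold. With a library left out it ran from 7.57 points without siNT library c to 22.9 points without siNT library b. Skipping reads of exon 5 numbered 0, 0 and 2 in siSFSWAP, against 5, 2 and 10 in siNT. Exon 3 was at 91.3% to 96.5% in siSFSWAP and 94.9% to 100% in siNT. Intron 8, the last, was at 6.98%, 10% and 13.3% in siSFSWAP, against 11.9%, 12% and 24.7% in siNT (adjusted p = 0.579), with overlapping groups.

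**Figure D2:**
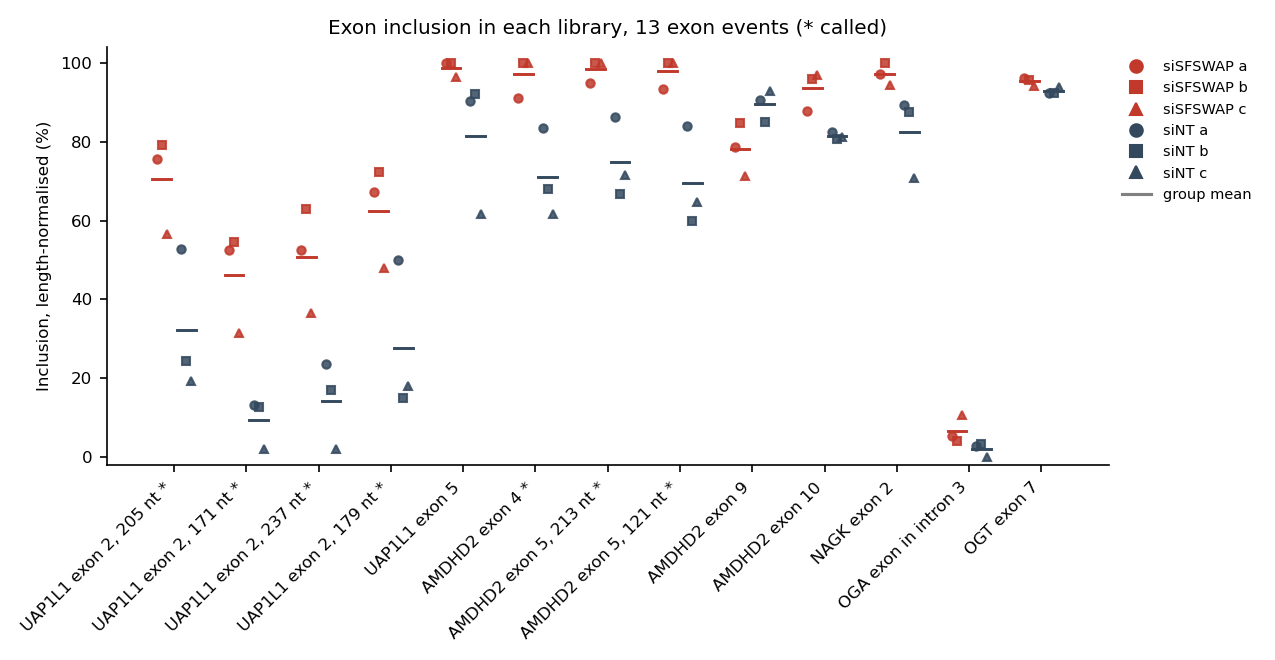
Length-normalised inclusion in percent (vertical axis) of 13 exon events in each library, siSFSWAP in red on the left and siNT in dark blue on the right, with a line at the group mean and a star at called events. The 4 forms of UAP1L1 exon 2 and the 3 events at AMDHD2 exons 4 and 5 were higher in siSFSWAP, and AMDHD2 exon 9 was the 1 event drawn whose siSFSWAP libraries all lay below those of siNT.

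AMDHD2 removes the acetyl group from GlcNAc 6-phosphate and so returns it toward fructose 6-phosphate. It had 14 tested exon events and 6 tested introns. Exon 5, of 213 nt, was included at 94.9%, 100% and 100% in siSFSWAP, against 86.4%, 66.7% and 71.4% in siNT when measured against reads that join exon 3 to exon 6. The change was 23.5 points (log2 odds 3.57, SE 1.34, adjusted p = 0.0323), and the groups did not overlap. A form of exon 5 of 121 nt was at 93.4%, 100% and 100% in siSFSWAP, against 83.9%, 60.0% and 64.7% in siNT (adjusted p = 0.0338).

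Exon 4 of AMDHD2, joined directly to exon 6, was at 91.1%, 100% and 100% in siSFSWAP, against 83.3%, 67.9% and 61.6% in siNT (adjusted p = 0.0481). These 3 events share their skipping reads, which numbered 2, 0 and 0 in siSFSWAP, against 9, 7 and 6 in siNT. They are therefore 1 observation on a junction that leaves out exons 4 and 5 together. Measured against other junctions the same exons were not called. Exon 4 between exons 3 and 5 was at 76.3%, 84.7% and 85.1% in siSFSWAP, against 82.8%, 81.3% and 70.7% in siNT (adjusted p = 0.952). Exon 5 between exons 4 and 6 was at 100%, 93.9% and 96.2% in siSFSWAP, against 98.9%, 83.1% and 90.7% in siNT. With limma on log2 odds both forms of exon 5 were called (adjusted p = 0.0484 and 0.0481) and exon 4 was not (adjusted p = 0.0596). Without siNT library a the 3 events were called, and without any other single library they were not (adjusted p between 0.0819 and 0.276).

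Towards the 3′ end of AMDHD2, exons 9 and 10 differed in direction. Exon 9, of 69 nt, was at 78.6%, 84.8% and 71.3% in siSFSWAP, against 90.5%, 85.1% and 92.8% in siNT (adjusted p = 0.283). A form of exon 9 of 90 nt was at 57.1%, 76.8% and 53.8% in siSFSWAP, against 83.4%, 80.1% and 90.4% in siNT (adjusted p = 0.154), and a form of 92 nt had nearly the same values. Exon 10, of 102 nt, was at 87.8%, 95.8% and 97.0% in siSFSWAP, against 82.4%, 80.7% and 81.2% in siNT (adjusted p = 0.163). In each of these the groups did not overlap and the change was not called. The forms of exon 9 end at the same base and share inclusion reads.

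The introns of AMDHD2 are among the shortest of the 10 genes, and 5 of the 6 tested had lower mean inclusion in siSFSWAP. Intron 8, of 90 nt, was included at 42.2%, 59.5% and 55.9% in siSFSWAP, against 57.7%, 81.9% and 85.2% in siNT (adjusted p = 0.198). Intron 5, of 74 nt, was at 9.95%, 11.4% and 13.5% in siSFSWAP, against 13.2%, 47.0% and 36.4% in siNT (adjusted p = 0.259). Intron 9, of 275 nt, was at 31.0%, 24.6% and 38.5% in siSFSWAP, against 37.5%, 53.7% and 45.5% in siNT (adjusted p = 0.236). In all 3 introns siNT library a overlapped the siSFSWAP libraries.

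None of these 3 AMDHD2 introns was called with all libraries. Without siNT library a the changes were −31.0 points for intron 8, −30.1 points for intron 5 and −18.2 points for intron 9 (adjusted p = 6.29e-05, 1.67e-05 and 0.0145), of which the first 2 pass both thresholds. Introns 2, 6 and 7 changed by 1.76, −1.67 and −4.74 points.

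RENBP, which interconverts GlcNAc and ManNAc, had the fewest spliced reads of the 10 genes and the largest change of any tested intron among them. Its intron 2, of 153 nt, was included at 15.8%, 13% and 13.7% in siSFSWAP, against 36.8%, 46.2% and 73.9% in siNT. The groups were far apart and the siSFSWAP libraries lay close together. Mean inclusion was 14.2% ± 1.43 in siSFSWAP and 52.3% ± 19.3 in siNT (SD, n = 3 each), a change of −38.1 points (log2 odds −2.42, SE 0.58, quasi-binomial test with limma moderation, adjusted p = 0.0262).

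The event rested on few reads. Retained reads of RENBP intron 2 numbered 9, 6 and 7 in siSFSWAP, against 21, 12 and 17 in siNT, and spliced reads numbered 24, 20 and 22 in siSFSWAP, against 18, 7 and 3 in siNT. Scaled to depth, the spliced reads were at 5.39, 7.23 and 7.01 RPM in siSFSWAP, against 2.41, 2.19 and 1.06 in siNT, and retained reads at 2.02, 2.17 and 2.23 in siSFSWAP, against 2.81, 3.75 and 6.01 in siNT. Neither kind of read overlapped between the groups. The call was kept without siNT library a (adjusted p = 0.000201) and lost without any other single library (adjusted p between 0.0667 and 0.178) or with limma on log2 odds (adjusted p = 0.135). No RENBP exon event met the read rule.

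NAGK, the kinase that salvages free GlcNAc, had no called event. Its intron 5, of 730 nt, was at 15.1%, 18.9% and 19.0% in siSFSWAP, against 14.5%, 14.6% and 11.5% in siNT (adjusted p = 0.717). Exon 2, of 85 nt, was at 97.1%, 100% and 94.3% in siSFSWAP, against 89.2%, 87.5% and 70.8% in siNT (adjusted p = 0.175). For both the groups did not overlap. The largest NAGK change was in an exon form of 81 nt, at 100%, 54.1% and 44% in siSFSWAP, against 67.1%, 93.7% and 93.7% in siNT, where siSFSWAP library a stood apart from its group and the groups overlapped (adjusted p = 0.455).

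The 2 called introns and the 7 called exon events all lay in UAP1L1, AMDHD2 and RENBP, whose gene bodies are 61.5%, 59.1% and 55.7% GC with median introns of 422, 123.5 and 236 nt. NAGK, at 50.4% GC, has a median intron of 846 nt. The remaining 6 genes, OGT, OGA, GFPT1, GNPNAT1, PGM3 and UAP1, are at 37.7% to 41.9% GC with median introns of 946 to 2333 nt. The called introns were 61.4% and 64.8% GC, beside a median of 55.4% over all tested introns, and the called exons were 61.8% to 72.1% GC, beside a median of 50.4% over all tested exon events. OGT intron 4 is 41.6% GC. These events come from few genes and share flanking sequence, so the values are a description.

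**Figure D3:**
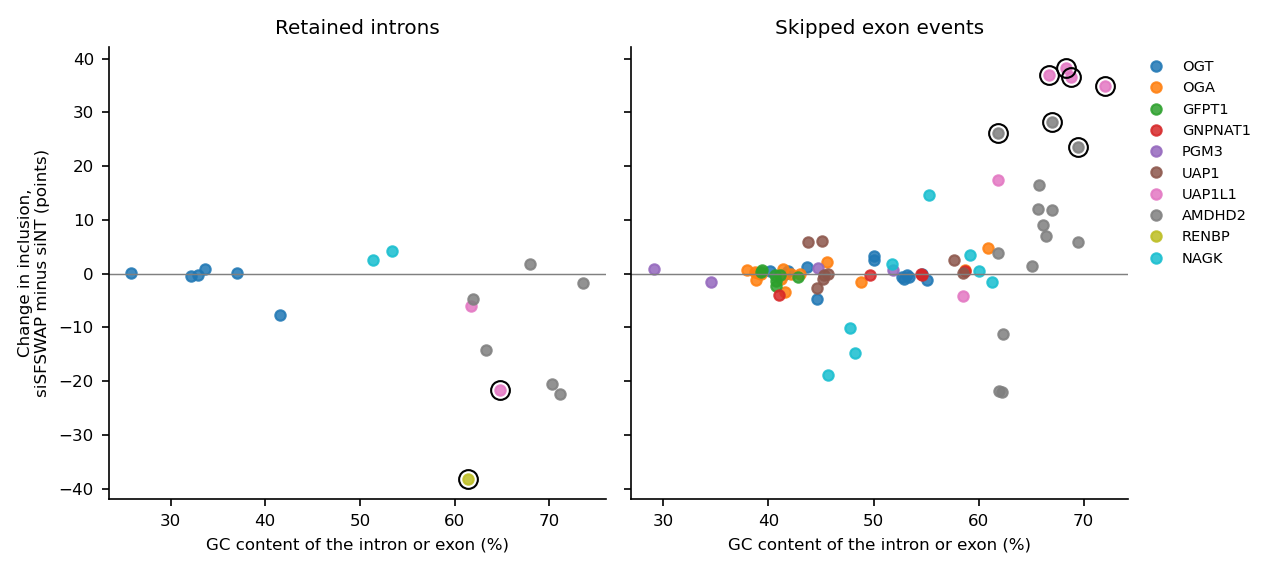
Change in inclusion in percentage points, siSFSWAP minus siNT (vertical axis), against GC content in percent (horizontal axis) for the 17 tested introns on the left and the 79 tested exon events on the right, coloured by gene, with black rings around called events. All called events lie above 60% GC, and AMDHD2 and UAP1L1 also hold events there that changed little or in the other direction.

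Spliced reads per gene, the sum over exons of inclusion and skipping reads, gave a measure of how much spliced RNA each gene contributed. This sum moves with splicing as well as with RNA amount, and in bulk RNA fewer cells that express a gene cannot be told apart from less RNA per cell. Among the 10 genes 2 were higher and 2 lower in siSFSWAP (limma, adjusted p at most 0.05 over 10775 genes), against 14.7% of all genes higher and 15.6% lower, so these shares were not far from the background. The median log2 change over all genes was −0.0048.

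RENBP rose, at 2.32, 3.10 and 4.21 CPM in siSFSWAP, against 1.03, 1.36 and 1.26 CPM in siNT, on 23 to 82 reads per library. The groups did not overlap, and the log2 change was 1.08 (SE 0.22, limma adjusted p = 0.00468), kept without any single library. AMDHD2 rose, at 41.1, 44.6 and 36.3 CPM in siSFSWAP, against 30.4, 29.9 and 26.5 CPM in siNT. Its log2 change was 0.48 (SE 0.11, adjusted p = 0.00908), and the call was lost without siSFSWAP library b (adjusted p = 0.0551).

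GFPT1, the entry enzyme, fell, at 57.4, 59.6 and 67.2 CPM in siSFSWAP, against 71.9, 86.0 and 89.2 CPM in siNT. Its log2 change was −0.42 (SE 0.11, limma adjusted p = 0.0136). UAP1, which carries out the last step, fell too, at 78.5, 84.4 and 75.0 CPM in siSFSWAP, against 93.3, 104.1 and 99.9 CPM in siNT. Its log2 change was −0.32 (SE 0.09, adjusted p = 0.0197). Both calls hung on single libraries: GFPT1 was lost without siNT b (adjusted p = 0.0614), siNT c (0.0549), siSFSWAP a (0.0593) or siSFSWAP b (0.0599), and UAP1 without siNT b (0.0915), siNT c (0.0582), siSFSWAP a (0.0643) or siSFSWAP c (0.0847).

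OGT was at 232.8, 199.1 and 201.1 CPM in siSFSWAP, against 230.6, 208.7 and 199.6 CPM in siNT (log2 change −0.01, SE 0.09, adjusted p = 0.919). OGA was at 187.2, 198.7 and 203.3 CPM in siSFSWAP, against 187.7, 211.1 and 225.4 CPM in siNT (log2 change −0.08, adjusted p = 0.508). In both cycling genes the groups overlapped.

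Of the remaining genes, PGM3 was at 30.1, 31.8 and 34.8 CPM in siSFSWAP, against 29.6, 30.8 and 31.1 CPM in siNT. GNPNAT1 was at 16.6, 20.5 and 18.5 CPM in siSFSWAP, against 16.2, 21.3 and 19.8 CPM in siNT. NAGK was at 22.4, 19.5 and 17.6 CPM in siSFSWAP, against 20.4, 26.0 and 29.5 CPM in siNT (adjusted p = 0.107). All 3 had overlapping groups. UAP1L1 was at 14.2, 16.8 and 21.1 CPM in siSFSWAP, against 7.71, 22.0 and 17.4 CPM in siNT (adjusted p = 0.552), and siNT library a stood below all others.

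**Figure D4:**
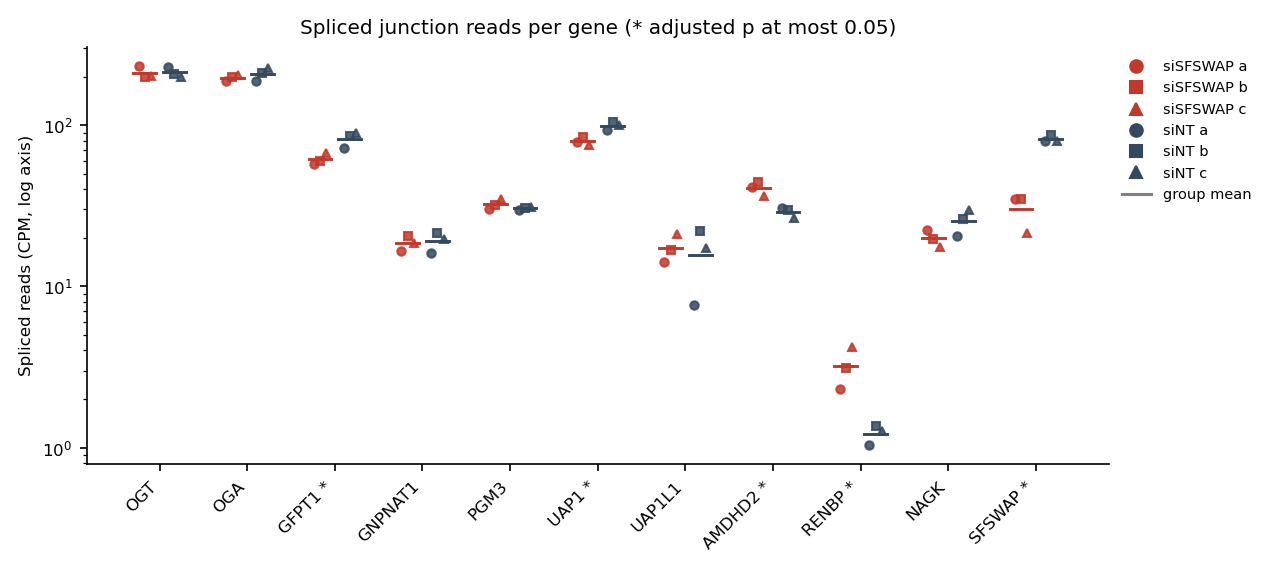
Spliced junction reads in CPM (vertical, logarithmic axis) of the 10 genes and of SFSWAP in each library, siSFSWAP in red on the left and siNT in dark blue on the right, with a line at the group mean and a star where the limma adjusted p was at most 0.05. RENBP and AMDHD2 were higher and GFPT1, UAP1 and SFSWAP lower in siSFSWAP, and the scale is not corrected for gene length, so genes are not compared with each other.

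A wider list of 44 genes that supply or use UDP-GlcNAc was read for counts. None of its 80 tested introns was called by the quasi-binomial test, beside 1.61% of all tested introns lower and 0.148% higher. Limma on log2 odds called none of them either, but it called none of all 10155 tested introns. At an unadjusted p of at most 0.05 there were 18 of the 80, 15 of them lower, beside 1605 of all 10155, of which 1259 were lower. Of 202 tested exon events 9 were higher and 2 lower in siSFSWAP, beside 1.44% of all tested exon events higher and 0.655% lower. With limma on log2 odds 3 of the list's exon events were called. Events that rose included those in the glucose sensor MLXIP, the dolichol-linked GlcNAc transferase DPAGT1, the GlcNAc transferase of O-mannose glycans POMGNT1 and the lysosomal NAGLU. MLXIP had 3 forms of 1 exon, the deepest, of 92 nt, at 94.0%, 96.2% and 92.8% in siSFSWAP, against 85.4%, 64.7% and 62.4% in siNT (adjusted p = 0.0143).

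The events of this wider list that fell were an exon of 62 nt in GFPT2, the paralogue of GFPT1, and one of 51 nt in ALG13. The GFPT2 exon was at 87.8%, 64.8% and 44.2% in siSFSWAP, against 95.2%, 83.5% and 96.2% in siNT (adjusted p = 0.0382). The ALG13 exon was at 90.2%, 75.5% and 46.8% in siSFSWAP, against 100% in all siNT libraries (adjusted p = 0.0369). In GFPT2 siSFSWAP library a overlapped the siNT range. Left-out libraries moved the 11 calls of the list to between 2 without siSFSWAP library c and 14 without siNT library a, with 3 without siNT b, siNT c or siSFSWAP b and 5 without siSFSWAP a.

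Spliced reads were called higher for 5 and lower for 8 of the 39 tested genes of this list, beside 14.7% of all genes higher and 15.6% lower, so the list's shares were near the background. POMGNT1 had 87.6 CPM in siSFSWAP and 54.2 CPM in siNT on average (log2 change 0.69, limma adjusted p = 0.000907). GNE, the entry enzyme of sialic acid synthesis, had 3.66 CPM in siSFSWAP and 1.37 CPM in siNT (log2 change 1.18). GFPT2, HK2 and GPI were lower, by −0.55, −0.72 and −0.24 on the log2 scale. Others called were DPAGT1 and MLXIPL, which were higher, and SLC35B4, SLC35D2, GALNT2, SLC1A5 and NUDT9, which were lower. The number of genes called on the list was 6 without siNT b, siSFSWAP b or siSFSWAP c, 7 without siNT c and 20 without siNT a.

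OGT intron 4 was also set beside 832 other tested introns of at least 1000 nt. The 5 with inclusion closest to it over the 6 libraries, 1 per gene, were in MLXIP, NDUFS7, EXOSC2, SMARCB1 and KHDC4, with mean absolute differences of 3.20, 3.33, 3.73, 3.97 and 4.36 percentage points. The MLXIP intron, of 1802 nt, was at 23.9%, 28.6% and 25.0% in siSFSWAP, against 31.7%, 35.3% and 50% in siNT. The KHDC4 intron was at 27.0%, 28.3% and 30.1% in siSFSWAP, against 28.7%, 23.7% and 30.1% in siNT, with overlapping groups. These introns were picked by their likeness to OGT intron 4 in the same libraries, so their values are a description.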

How the data were processed

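The authors trimmed single-end reads with cutadapt 1.9.1 and aligned them with STAR 2.7 to GRCh38, per the labels and the study's methods, and counted junctions with rMATS. The deposited tables hold whole-number junction read counts of the inclusion and skipping forms of each event, as lists of 3 per group, and effective lengths. The authors' p-values, FDR and inclusion differences in the same tables were not used. Groups appear in the tables as 1 and 2 only. The first was taken as siNT because the study defines its inclusion difference as siNT minus siSFSWAP and rMATS subtracts the second group from the first. As a check that was not used to choose, SFSWAP reads were lower in the second. Inclusion reads cover both junctions of an exon event, so exon forms with a common start or end share reads. Their inclusion is not the use of that form alone. Events share junctions, so their tests are not independent.

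Inclusion was the length-normalised share of inclusion reads. Events averaging 20 reads or more a library, with at least 5 reads of each form and reads in at least 2 libraries per group were tested with a quasi-binomial F test, 2-sided, in R 4.3.3, with limma 3.58.1 moderation of a dispersion floored at 1. Spliced reads per gene took the deepest event of each exon, so that neighbouring exons can count a junction more than once, and were tested with limma on log2(CPM + 0.5) after scaling by the summed reads. Fold changes on that scale understate those of low genes. Positions and sequences came from GRCh38 and GENCODE release 44. In data simulated from the 10155 introns, 24 of 50 changes of 0.35 and 8 of 50 of 0.2 were found, and in the 48100 exon events 24 of 50 and 4 of 50. These changes were placed only in events of intermediate inclusion and were counted as found by adjusted p alone. The rates do not carry over to events with inclusion near either end.

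The genes and lists were chosen with earlier results of these data known. Some genes of the wider list are counted but not reported here. Text gives library values for all called events of the 10 genes, events with an unadjusted p of at most 0.05 (the deepest per exon), the largest change per gene, OGT intron 4 and the forms within it, and spliced reads. Alternatives were each library left out, limma on log2 odds, no dispersion floor, at least 50 reads, a change of 0.1 or none, no filter on each form, a raw share, a pseudocount of 2 CPM, no low filter and median-ratio scaling.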

Additional observations from a re-analysis of the deposited data

How the results depend on the processing

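Calls among the 10 genes depended on which libraries and test were used. With 2 introns called on all libraries, leaving out 1 library gave 0 to 4, with 4 without siNT library a and 0 without each of the other 5. The count was 0 with limma on log2 odds, which called none of all 10155 tested introns. It was also 0 at a mean of at least 50 reads, where RENBP intron 2 was too shallow to test and UAP1L1 intron 3 had an adjusted p of 0.0611. It was 1 without the filter on each form, where UAP1L1 intron 3 was lost. With 7 exon events called, leaving out 1 library gave 0 to 8, with 8 without siNT library a. The count was 3 with limma on log2 odds and 2 at a mean of at least 50 reads. Spliced reads called 4 genes, and 2 to 5 when 1 library was left out. OGT intron 4 was lower in siSFSWAP in every fit, by −4.02 to −10.0 points with 1 library left out and by −8.75 points as a raw share, and it was not called in any, although its adjusted p was 0.0266 without siNT library a. No direction of a called event reversed. No paired analysis was possible because the lists of counts carry no replicate numbers. Where a form has fewer than 10 reads in some libraries, as in RENBP, AMDHD2 and UAP1L1, depth limits what can be told apart. With 3 libraries a group, p-values weigh a change against the spread between these samples, moderated over all tested events. Over all genes, leaving out 1 library moved the introns called lower between 13 and 510 and the exon events called higher between 62 and 1288, beside 163 and 692 with all libraries. Dropping the dispersion floor, a change of 0.1 and adjusted p alone left both counts in the 10 genes as they were.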
